A study of Homo sapiens with 6 samples.

Results

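The CHST genes encode carbohydrate sulfotransferases, enzymes of the Golgi that add sulfate to sugar chains, and 10 of them were followed here in a human pancreatic cancer line treated with Schisandrin B, a lignan of the Schisandra fruit. The genes are CHST1, CHST2, CHST3, CHST6, CHST7, CHST10, CHST11, CHST12, CHST14 and CHST15, which are 10 of the 63241 genes in the deposited table. The family was selected on the measured rise of CHST1, one of the largest with Schisandrin B in these same libraries. The differences between the groups therefore describe the members and are given without a p-value, and they support nothing about the choice.

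The cells were PANC-1, an established line derived from a human pancreatic ductal carcinoma, labelled wild type and grown in DMEM with fetal bovine serum and penicillin-streptomycin. One group received 20 µM Schisandrin B for 24 h and the other received the vehicle, DMSO at less than 0.1%, for the same 24 h. Each group has 3 libraries, and the study's title places the treatment in the setting of ferroptosis, an iron-dependent form of cell death. Nothing in the labels says whether the 3 libraries of a group came from separate cultures, so the spread between them may be technical. A single dose, a single time and a single line were measured, and the values are RNA levels, not enzyme activity or sulfate on chains.

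Carbohydrate sulfotransferases take sulfate from the donor PAPS (3′-phosphoadenosine-5′-phosphosulfate), which is made in the cytosol and nucleus and carried into the Golgi. Each enzyme places sulfate at a given carbon of a given sugar, on keratan sulfate, chondroitin sulfate, dermatan sulfate, or the glycans of other glycoproteins. The position of the sulfates is known to decide which proteins bind a chain, and chondroitin sulfate is known to accumulate in the stroma of pancreatic carcinoma.

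The library totals ran from 13656826 to 18289410 counts, so that 1 count was worth 0.0556 to 0.0742 CPM (the usual depth-scaled count, with TMM correction for library composition). Of the 7 ductal epithelial markers, KRT8, KRT18, KRT19 and SOX9 were detected and called lower, and KRT7, EPCAM and CDH1 each had between 2 and 18 counts summed over a group; the list's sum ran from 1604 to 1711 CPM in vehicle and from 742 to 747 CPM in Schisandrin B. Summed leukocyte markers stayed between 0.139 and 0.735 CPM in every library. The fibroblast list summed to between 213 and 230 CPM in vehicle and to between 43.3 and 44.7 CPM in Schisandrin B, nearly all of it COL1A2. The endothelial list fell from between 13.3 and 13.7 to between 1.33 and 1.95 CPM, most of it CDH5 (means 12.9 and 1.3 CPM). Of the mesenchymal markers, VIM was called lower and ZEB1 higher, and CDH2 had 2 counts over the vehicle libraries and 6 over the treated ones. The part of these marker changes in the values below was not tested. In RNA from a whole culture, fewer cells of a kind and less RNA per cell cannot be told apart.

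All 10 members passed the filter on low counts that left 15773 genes. CHST1 and CHST6 passed it only through the treated libraries, as their vehicle counts were too low. A gene was called when its adjusted p was under 0.05 in edgeR's quasi-likelihood test over all genes tested. Schisandrin B changed a large part of the transcriptome: 70.2% of the genes tested were called, 35.0% higher and 35.2% lower. Of the members, 5 were called higher (CHST1, CHST3, CHST6, CHST11 and CHST15), 2 lower (CHST10 and CHST12) and 3 neither (CHST2, CHST7 and CHST14). The CPM of the 2 groups did not overlap for 8 of the 10 members, against 73.5% of all genes tested. The rule used this contrast, and nothing is read from these counts against the background. The median log2 fold change was 0.24 over the members and 0.0004 over all genes tested, and the median size, sign set aside, was 0.37 over the members and 0.52 over all genes tested.

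**Figure D1:**
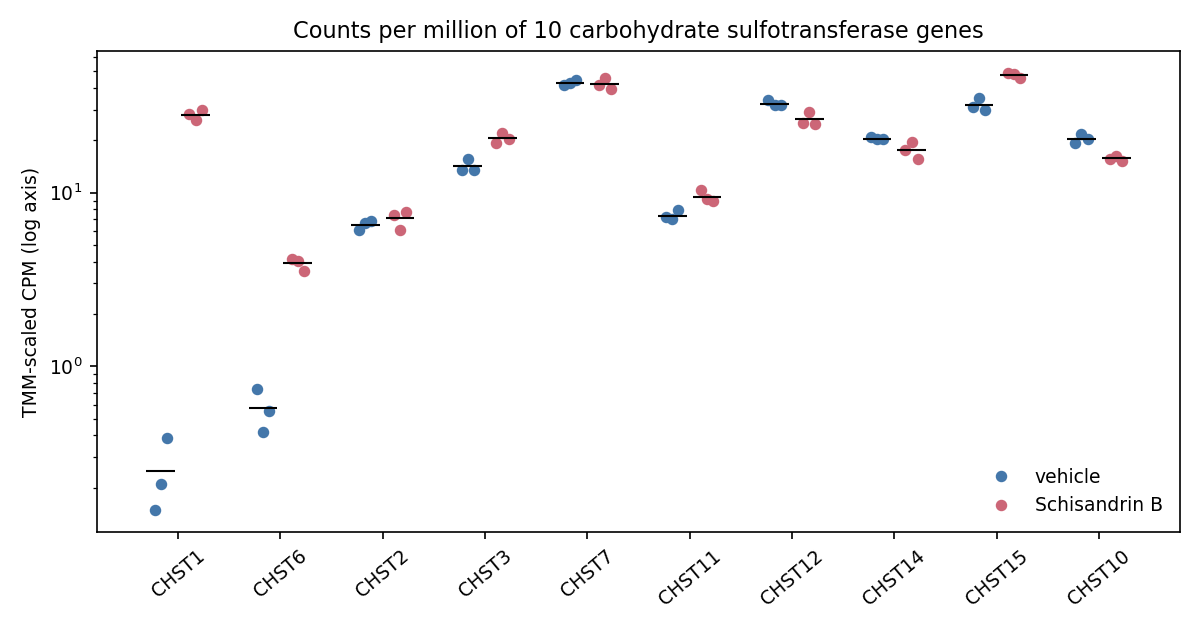
CPM of each of the 10 members on a log axis, with 1 point per library, 3 libraries per group. The CHST1 points of the groups are the farthest apart, below 0.39 CPM in vehicle and at 26.0 CPM or above in Schisandrin B, while those of CHST2 and CHST7 overlap.

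In the vehicle libraries, CHST7 was the most abundant member per length. It had 15.2 ± 0.53 FPKM (SD, n = 3 here and below), the authors' count of fragments scaled for transcript length and library size. CHST14 followed with 8.01 ± 0.17 FPKM, CHST10 with 6.43 ± 0.37 and CHST15 with 5.85 ± 0.39. The ranges of the last pair overlapped across libraries, although CHST10 was above CHST15 in each of the 3. CHST12 (1.78 ± 0.07 FPKM) and CHST3 (1.74 ± 0.14) overlapped too, with CHST12 the higher in 2 of 3 libraries, then came CHST2 (1.34 ± 0.08) and CHST11 (1.11 ± 0.07). CHST6 and CHST1 closed the order at 0.061 ± 0.022 and 0.046 ± 0.032 FPKM, and overlapped, with CHST6 the higher in 1 of 3 libraries. The ranges of all other neighbours in the order were separate. Both genes of a neighbouring pair come from the same 3 libraries, too few for a test within libraries to pass a threshold of 0.05, and no p is given. By FPKM, the RNA of the members in vehicle was mostly for enzymes of chondroitin and dermatan sulfate, with almost none for CHST1 and CHST6.

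CHST1, CHST6 and CHST2 transfer sulfate to the 6-carbon of galactose or N-acetylglucosamine (GlcNAc), the sugars of keratan sulfate and of selectin ligands. CHST1, the keratan sulfate galactose 6-sulfotransferase, lies on the minus strand at chr11:45647689-45665622 (GRCh38, ENSG00000175264). The vehicle libraries held 2, 3 and 7 counts of it, and the treated libraries 465, 373 and 415. As CPM these are 0.148, 0.21 and 0.389 in vehicle and 28.5, 26.0 and 29.9 in Schisandrin B. The gene was at the edge of detection in each vehicle library and plainly expressed in each treated one, with no overlap. The log2 fold change was 6.70 (SE 0.20), or 104-fold, the 8th highest of the genes tested, and the log2 fold change in the authors' deposited table is 6.71. Because the vehicle level rests on 12 counts in all, the ratio is loosely bounded: the pooled rates differed 107-fold, with an exact 95% interval of 61.2 to 208 that covers counting error only. It takes in neither the spread between libraries nor the choice of CHST1 by this same rise.

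Very little RNA was counted from the genes around CHST1 that share its position. ENSG00000255091, a long non-coding RNA on the opposite strand inside the CHST1 interval, had 0 counts in every vehicle library and 6, 4 and 3 in Schisandrin B. With the strand setting of the counting not given in the sources used here, its reads and those of CHST1 cannot be told apart, and its 13 counts compare with 1253 for CHST1. The nearest tested gene on one side, PRDM11, a member of the PRDM family of zinc-finger proteins 412578 bases away, was lower (log2 fold change -0.36, SE 0.09, edgeR adjusted p 0.00185). On the other side SLC35C1, which carries GDP-fucose into the Golgi and lies 138449 bases away, was higher (0.83, SE 0.07, edgeR adjusted p 5.9e-09).

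CHST6, the GlcNAc 6-sulfotransferase known for keratan sulfate of the cornea, lies on the minus strand at chr16:75472052-75495445 (ENSG00000183196). Vehicle libraries held 10, 6 and 10 of its counts and treated libraries 68, 58 and 49, which are 0.742, 0.42 and 0.556 CPM against 4.16, 4.04 and 3.53 CPM. Every treated library stood above every vehicle library. The log2 fold change was 2.76 (SE 0.28), or 6.8-fold, and the pooled rates differed 6.91-fold (exact 95% interval 4.56 to 10.9). CHST5, its close relative, is 86.7% identical to CHST6 over 1476 aligned transcript bases. Whether reads of one were counted for the other was not tested. CHST5 itself had 28 counts over the vehicle libraries and 37 over the treated ones, and was not called (log2 fold change 0.44, SE 0.41, edgeR adjusted p 0.355).

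The promoter windows of CHST6 and CHST15 are shown because these members had, after CHST1, the largest log2 fold changes. They are RefSeq sequences of GRCh38.p14 from 250 bases before to 50 after the gene start, on the minus strand, at chr16:75495392-75495691 for CHST6 and chr10:124093549-124093848 for CHST15. Capitals mark each CCACG, read on either strand, which is the second part of the endoplasmic reticulum stress response element.
CHST6: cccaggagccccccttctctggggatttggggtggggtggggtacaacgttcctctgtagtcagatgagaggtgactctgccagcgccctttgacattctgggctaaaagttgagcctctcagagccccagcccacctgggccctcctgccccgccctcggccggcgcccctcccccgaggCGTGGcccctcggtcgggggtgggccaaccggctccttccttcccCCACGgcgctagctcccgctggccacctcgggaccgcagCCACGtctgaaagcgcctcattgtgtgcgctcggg
CHST15: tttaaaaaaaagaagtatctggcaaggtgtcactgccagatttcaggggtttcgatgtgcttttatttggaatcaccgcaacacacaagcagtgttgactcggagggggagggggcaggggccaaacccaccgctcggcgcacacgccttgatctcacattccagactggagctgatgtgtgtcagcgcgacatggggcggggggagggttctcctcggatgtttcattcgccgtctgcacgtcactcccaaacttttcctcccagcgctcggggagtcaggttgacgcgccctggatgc
The CHST6 window holds 3 such matches and the CHST15 window 0. CCACG occurs in 6 of the 9 member promoters in RefSeq's table (all but CHST1) and in 38.1% of all 35116 promoters of that length. TGATGNAA, the core of the element read by ATF4 and C/EBP proteins, occurs in 0 of the 9 and in 3.62% of all, and TATAAA in 0 of the 9 and in 11.5%. GGGCGG, the GC box, occurs in 8 of the 9 and in 45.0% of all. All motifs were searched on both strands, and a match is letters in a window and not a site.

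CHST2, a GlcNAc 6-sulfotransferase known for ligands of L-selectin, showed no such difference. It had 6.08, 6.72 and 6.83 CPM in vehicle and 7.47, 6.07 and 7.78 CPM in Schisandrin B, and the groups overlapped. Its log2 fold change was 0.12 (SE 0.15). Summed over the 3 enzymes of this role, the level was 1.44 ± 0.12 FPKM in vehicle and 8.83 ± 0.88 FPKM in Schisandrin B, with CHST2 the main member in vehicle and CHST1, at 6.83 ± 0.61 FPKM, the main member in Schisandrin B.

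**Figure D2:**
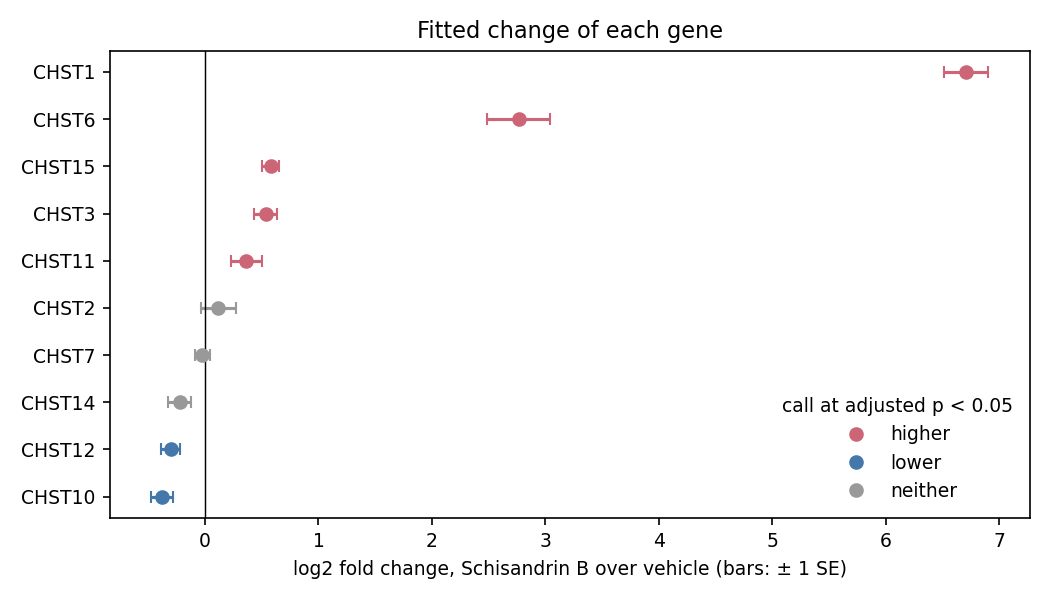
log2 fold change of Schisandrin B over vehicle for each member, with the SE as the error bar. CHST1 at 6.70 and CHST6 at 2.76 stand far from the other members, which lie between -0.38 and 0.58.

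The chondroitin 6-O-sulfotransferases CHST3 and CHST7 place sulfate on the 6-carbon of N-acetylgalactosamine (GalNAc), and they did not move alike. CHST3 had 13.4, 15.7 and 13.6 CPM in vehicle and 19.3, 22.1 and 20.4 CPM in Schisandrin B. The treated libraries were all higher, with a log2 fold change of 0.53 (SE 0.10), or 1.45-fold. CHST7, also able to act on GlcNAc, had 43.0 ± 1.4 CPM in vehicle and 42.3 ± 3.15 CPM in Schisandrin B, with overlapping groups and a log2 fold change of -0.02 (SE 0.07) whose sign turned with upper quartile scaling (0.04) or library totals (0.02). Their summed level was 17.0 ± 0.53 FPKM in vehicle and 18.1 ± 0.96 FPKM in Schisandrin B.

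CHST11 and CHST12 sulfate the 4-carbon of GalNAc in chondroitin, and CHST14 does so in dermatan sulfate. CHST11 had 7.2, 7.0 and 7.89 CPM in vehicle and 10.4, 9.13 and 8.93 CPM in Schisandrin B. Its groups did not overlap and its log2 fold change was 0.36 (SE 0.13), or 1.29-fold. That call is the least stable of the 7: it was lost in 6 of 16 alternatives, among them DESeq2 and the fits without vehicle replicate 1, vehicle replicate 2 or Schisandrin B replicate 1. CHST12 went the other way, with 34.0, 31.8 and 31.8 CPM in vehicle and 25.3, 29.3 and 24.7 CPM in Schisandrin B, a log2 fold change of -0.30 (SE 0.08). CHST14 had 20.9, 20.2 and 20.3 CPM in vehicle and 17.6, 19.4 and 15.6 CPM in Schisandrin B. Every treated library of CHST14 was below every vehicle library, but at a log2 fold change of -0.22 (SE 0.10) it was not called, and it was called without Schisandrin B replicate 2. The 3 enzymes together had 10.9 ± 0.19 FPKM in vehicle and 9.998 ± 0.87 FPKM in Schisandrin B.

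CHST15 adds a second sulfate, at the 6-carbon, to GalNAc that already carries one at the 4-carbon, which makes the disulfated unit of chondroitin sulfate E. Its CPM were 30.9, 35.0 and 29.9 in vehicle and 49.0, 48.0 and 45.8 in Schisandrin B, with every treated library above every vehicle library. The log2 fold change was 0.58 (SE 0.07), or 1.49-fold. CHST10, which sulfates the 3-carbon of glucuronic acid to finish the HNK-1 epitope of neural glycoproteins, was lower. It had 19.4, 21.7 and 20.2 CPM in vehicle and 15.7, 16.3 and 15.2 CPM in Schisandrin B, a log2 fold change of -0.38 (SE 0.09), or 1.3-fold lower.

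The makeup of the RNA of the 10 members therefore differed between the groups mainly through CHST1. Summed over the 10 members, the level was 41.6 ± 0.96 FPKM in vehicle and 51.5 ± 2.28 FPKM in Schisandrin B. CHST1 took 0.11 ± 0.074% of that sum in vehicle and 13.3 ± 1.39% in Schisandrin B. CHST15 took 14.1% in vehicle and 18.2% in Schisandrin B, while CHST7 took 36.6% and 30.1%, CHST14 19.2% and 13.7%, and CHST10 15.4% and 10.1%. CHST3, CHST2, CHST11 and CHST12 each stayed between 2.66% and 5.07% in both groups, and CHST6 reached 0.97%. These shares of one sum are tied to each other, so that a rise of one lowers the rest.

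**Figure D3:**
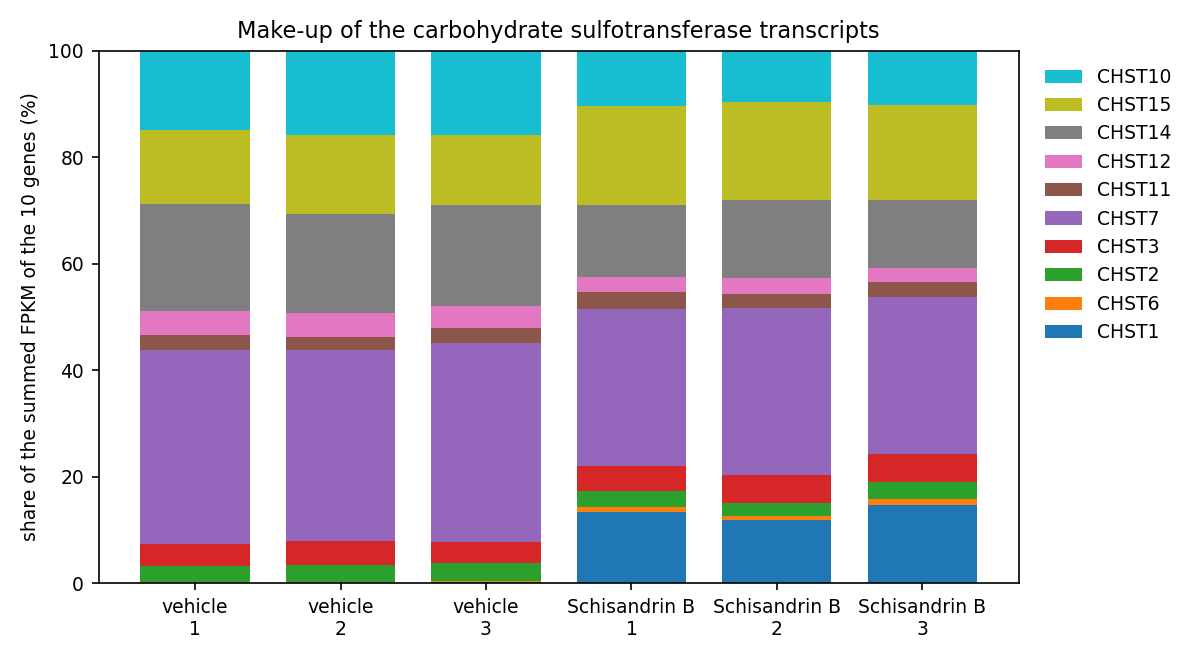
Share of the summed FPKM of the 10 members taken by each, in percent, shown separately for each library, with 3 libraries per group. CHST1 has a mean share of 0.11% in vehicle and 13.3% in Schisandrin B, and CHST7 has the largest share in both groups.

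In the treated cells CHST1 came 4th per length, overlapping with CHST14 (7.06 ± 0.69 FPKM) and below CHST7 (15.5 ± 0.92) and CHST15 (9.4 ± 0.63). The order depends on the lengths used. With counts per kilobase of all annotated exons in place of FPKM, CHST1 came 2nd in Schisandrin B at 8.19 CPM per kilobase, and CHST15 passed CHST10 in vehicle. The near absence of CHST1 in vehicle was the same on both scales, at 0.07 ± 0.035 CPM per kilobase.

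The table holds 5 more CHST genes, and 2 of them passed the filter on low counts. None of the 5 is in the order, sums or shares above. CHST13, another chondroitin 4-O-sulfotransferase, had 3.53 ± 0.62 FPKM in vehicle and 2.68 ± 0.49 FPKM in Schisandrin B. Its CPM were 7.96 ± 1.45 in vehicle and 5.85 ± 0.89 in Schisandrin B, with overlapping groups. The gene was called lower (log2 fold change -0.44, SE 0.17, edgeR adjusted p 0.0302). That call was lost in 6 of 14 alternatives, with an edgeR adjusted p of 0.165 without vehicle replicate 2, 0.108 without Schisandrin B replicate 2 and 0.0818 without Schisandrin B replicate 3. The untested CHST4 had 11 counts over the vehicle libraries and 8 over the treated ones, CHST9 had 1 and 0, and CHST8 had 0 in both groups.

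The genes that build the chains on which the members act moved unevenly. Beside the counts of this and the later lists, 35.0% of all genes tested were called higher and 35.2% lower. No list was tested against these shares. All 6 tested genes of chondroitin and dermatan chain synthesis were higher, with a median log2 fold change of 1.03 beside 0.0004 over all genes tested. CHPF, a subunit of chondroitin polymerase, had 47.1, 52.2 and 47.8 CPM in vehicle and 187, 193 and 173 CPM in Schisandrin B (log2 fold change 1.91, SE 0.06, edgeR adjusted p 1.28e-14). DSE, the epimerase that turns glucuronic acid into iduronic acid in dermatan, had 1.65 ± 0.38 CPM in vehicle and 6.31 ± 0.68 CPM in Schisandrin B (1.95, SE 0.21, edgeR adjusted p 3.57e-07). CSGALNACT2, which starts and extends chondroitin chains, had 27.8 ± 2.42 and 60.7 ± 2.93 CPM (1.13, SE 0.07, edgeR adjusted p 3.16e-10). CHPF2 (0.92) and CHSY1 (0.57), polymerase genes, rose with edgeR adjusted p of 3.155e-10 and 0.000102. DSEL, a second epimerase, had 82 counts over the vehicle libraries and 126 over the treated ones, and its call (0.66, edgeR adjusted p 0.0231) was lost in 6 alternatives, among them the fits without vehicle replicates 1 or 2 or Schisandrin B replicates 1 or 2, at edgeR adjusted p of 0.064, 0.0854, 0.0609 and 0.0915.

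Calls among the genes of the linkage region and the other chain types were as follows. Of 6 tested genes of the linkage region that joins a chain to its core protein, 1 was higher and 0 lower: B4GALT7, the first galactosyltransferase, at 0.43 (SE 0.06, edgeR adjusted p 9.57e-06). That count depends on the processing: it was 3 with upper quartile scaling or library totals, where B3GAT3 and FAM20B passed too, 4 with a filter of at least 5 CPM, where B3GALT6 also passed, and 2 without Schisandrin B replicate 2 or replicate 3. Of 5 tested genes of heparan chain synthesis, EXT2 was higher (0.38, edgeR adjusted p 2.68e-05) and EXTL3 lower (-0.27, edgeR adjusted p 0.0009995), and 3 were neither. Of 5 tested genes for the keratan chain and the HNK-1 backbone, 1 was higher. That gene was B4GALT4, a galactosyltransferase of keratan sulfate, with 15.7, 13.9 and 16.9 CPM in vehicle and 36.2, 34.9 and 32.0 CPM in Schisandrin B (1.15, SE 0.09, edgeR adjusted p 8.97e-09). B3GAT1, which makes the glucuronic acid that CHST10 sulfates, had a log2 fold change of -0.22 (edgeR adjusted p 0.0554), and B3GNT7, a keratan GlcNAc-transferase, had 32 counts over the vehicle libraries and 17 over the treated ones and was not tested.

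RNA levels of genes that supply sulfate and PAPS were called in both directions. Of 9 tested genes, 6 were higher, 2 lower and 1 neither, with a median log2 fold change of 0.79. PAPSS1, one of the synthases that make PAPS, was lower, with 55.2, 59.2 and 56.95 CPM in vehicle and 35.3, 33.6 and 37.0 CPM in Schisandrin B (-0.69, SE 0.06, edgeR adjusted p 3.05e-08). PAPSS2, the other synthase, was called higher (0.56, SE 0.23, edgeR adjusted p 0.0359) at a lower level, with 3.04 ± 1.03 CPM in vehicle and 4.46 ± 0.24 CPM in Schisandrin B and overlapping groups. BPNT2, the Golgi phosphatase that clears the by-product of sulfation, was higher, with 67.7 ± 3.42 CPM in vehicle and 122 ± 5.14 CPM in Schisandrin B (0.85, SE 0.05, edgeR adjusted p 2.26e-10). BPNT1, the cytosolic phosphatase for the same by-product, was lower, with 35.0 ± 1.58 CPM in vehicle and 26.6 ± 0.25 CPM in Schisandrin B (-0.39, SE 0.08, edgeR adjusted p 0.000175). The sulfate transporters SLC26A1 (1.71, edgeR adjusted p 2.55e-07) and SLC26A2 (0.855, edgeR adjusted p 2.12e-08) were higher too. Of the PAPS carriers of the Golgi, SLC35B3 was higher (0.83, edgeR adjusted p 1.14e-06) and SLC35B2 was not called (-0.07, SE 0.06, edgeR adjusted p 0.318).

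**Figure D4:**
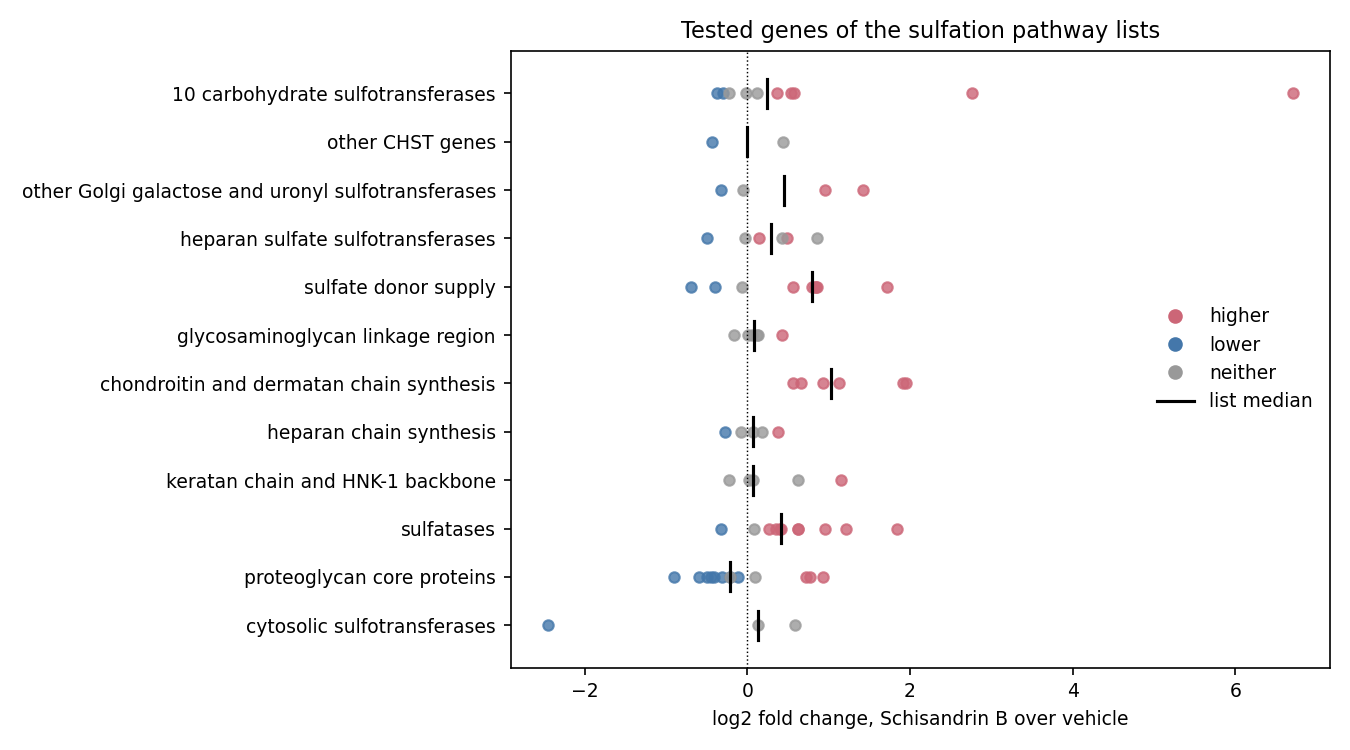
log2 fold change of Schisandrin B over vehicle for each tested gene of the sulfation lists, 1 point per gene, by list. The 6 points of chondroitin and dermatan chain synthesis all lie above 0, with a median of 1.03, and the proteoglycan core proteins have a median of -0.22.

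Sulfotransferases outside the CHST family showed both directions. Of 4 tested enzymes that sulfate galactose, uronic acid or tyrosine in the Golgi, UST, the uronyl 2-O-sulfotransferase of chondroitin and dermatan, was higher (0.95, SE 0.10, edgeR adjusted p 3.65e-07), as was GAL3ST2 (1.42, SE 0.37, edgeR adjusted p 0.00276, from 20 and 53 counts). TPST2, a tyrosine sulfotransferase, was lower (-0.32, edgeR adjusted p 0.007695) and TPST1 was not called. Of 6 tested heparan sulfate sulfotransferases, 2 were higher, 1 lower and 3 neither. HS6ST1, the 6-O-sulfotransferase, was lower (-0.50, SE 0.08, edgeR adjusted p 3.56e-05), while NDST1, which starts heparan sulfation, had a log2 fold change of -0.03 (edgeR adjusted p 0.548). The calls of HS2ST1 (0.15, edgeR adjusted p 0.044) and HS3ST3A1 (0.48, edgeR adjusted p 0.0371) were lost in 8 and 6 of their alternatives. Leaving out vehicle replicate 1, vehicle replicate 2, Schisandrin B replicate 1 or Schisandrin B replicate 2 took the edgeR adjusted p of HS2ST1 to 0.14, 0.155, 0.0736 and 0.205. Leaving out vehicle replicate 1, vehicle replicate 3, Schisandrin B replicate 1 or Schisandrin B replicate 3 took that of HS3ST3A1 to 0.0868, 0.164, 0.134 and 0.0625. Of 3 tested cytosolic sulfotransferases, which act on small molecules, SULT2B1 was lower (-2.46, SE 0.43, edgeR adjusted p 0.000118, from 106 and 19 counts).

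Genes for enzymes that remove sulfate and for proteins that carry the chains each held calls in both directions. Of 11 tested sulfatase genes, modifying factors included, 9 were higher, 1 lower (STS, steroid sulfatase, a call lost in 9 of 15 alternatives, among them the fits without vehicle replicate 1 or 2 or Schisandrin B replicate 1 or 2) and 1 neither, with a median log2 fold change of 0.42. Among those with the smallest adjusted p were ARSA, arylsulfatase A (1.21, edgeR adjusted p 1.475e-09), ARSG (1.84, edgeR adjusted p 7.85e-09) and GALNS, which removes 6-sulfate in keratan and chondroitin sulfate (0.62, edgeR adjusted p 1.25e-07). Of 29 proteoglycan core proteins, 13 were tested, 3 higher, 8 lower and 2 neither. SRGN, serglycin, a carrier of chondroitin chains, was higher (0.77, edgeR adjusted p 6.37e-11), as was PTPRZ1 (0.93, edgeR adjusted p 1.79e-07), and the heparan carriers HSPG2 (-0.91, edgeR adjusted p 1.82e-10) and SDC3 (-0.49, edgeR adjusted p 2.84e-08) were lower. The chondroitin carriers did not share a direction. BCAN was higher (0.72, edgeR adjusted p 0.00818), CSPG5 was lower (-0.60, edgeR adjusted p 0.00626) and CSPG4 was not called (-0.22, edgeR adjusted p 0.577). BCAN, CSPG5 and CSPG4 were named after their values were seen. FMOD, OGN, KERA, OMD and ACAN, cores known to carry keratan sulfate, had 0 counts in every library. LUM, another such core, had 2 counts over the vehicle libraries and 0 over the treated ones. These are not all the cores that can carry keratan sulfate.

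The genes closest to CHST1 across the 6 libraries, by Euclidean distance of log2 CPM, were ZMIZ1-AS1 (1.75), CMKLR2 (1.75), LAMP3 (1.97), KLHDC7B (2.12) and PCDH1 (2.575). All share its low vehicle level, as the measure of likeness requires, and CMKLR2 had 5, 2 and 5 counts in the vehicle libraries.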

How the data were processed

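RNA-seq libraries were made from total RNA with a SMARTER mRNA-Seq kit, per the labels' protocols. Raw gene counts were deposited as whole numbers, keyed by Ensembl ID and not normalized, per the file headers. The deposited FPKM values were scaled by the authors for library size and for gene lengths that are unstated. The log2 fold change deposited by the authors comes from a comparison of theirs by an unstated test. GRCh38 and mm10 are named in the submitters' processing notes, with aligner, counting tool and strand setting not given in the sources used here. Of 58228 gene IDs shared with GENCODE release 29 on GRCh38, 58165 lie at overlapping positions (99.9%), all 10 members among them.

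The counts were fitted by edgeR 4.0.16 under R 4.3.3: filterByExpr by group, TMM scaling, robust quasi-likelihood fit, two-sided F-test, Benjamini-Hochberg adjustment over all 15773 genes tested, threshold 0.05. Each SE is the absolute log2 fold change over the root of its F statistic, and CPM use TMM-scaled totals. Only the counts per kilobase use library totals without TMM. Alternatives used DESeq2 1.42.0 and limma 3.58.1 (voom, and log2(FPKM + 0.1) or log2(FPKM + 1)), other scalings and filters, a replicate block, and each library left out in turn. On simulated data the test recovered 60.3% of 68 genes changed 1.5-fold, 77.9% of 68 changed 2-fold and 95.3% of 64 changed 4-fold. There were 13 false calls among 15268 unchanged genes. Few genes were changed there, against 70.2% called in the data, so scaling and false calls under so broad a change were not tested. Tables, sequences and figures used Python 3.11.15, pandas 2.3.3, matplotlib 3.10.9 and blastn 2.17.0.

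Depth was 13656826 to 18289410 counts per library, and intervals reflect counting error alone, as no molecular identifiers mark independent molecules. Replicates of a group correlated at 0.986 to 0.988 and libraries of different groups at 0.921 to 0.929. Same-numbered libraries did not deviate together (correlations 0.03, -0.05 and -0.01), so replicate numbers were not taken as pairs. A planned permutation test between genes ranked by level is not given, because both genes come from the same libraries. The members and lists were chosen with earlier results of these data known. Named were all members, all tested genes of lists with 6 or fewer and the 4 with the smallest adjusted p of longer ones, of which the text gives those it turns on, the 5 genes nearest to CHST1, its tested neighbours and overlapping genes. One gene that this rule names is not reported here.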

Additional observations from a re-analysis of the deposited data

How the results depend on the processing

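Members called higher numbered 4 or 5 and those called lower 2 or 3 under 15 alternatives, and over all genes the counts ran from 4428 to 5994 higher and from 4486 to 5885 lower. No called member or called named gene changed direction: of 159 member results, 148 stayed on their side of the threshold, 8 fell short of it and 3 newly passed it. CHST7, never called, took both signs (-0.08 to 0.06). The alternatives refit the libraries by which the family was chosen, so kept calls of members are a description and no support. CHST1 kept its call under all 16 alternatives, at a log2 fold change of 2.90 to 7.21. The lowest came with a pseudocount of 1 on FPKM, which shrinks low values. CHST6 kept its call under 15, from 0.50 with that pseudocount to 2.95, and was not tested with at least 5 CPM in 3 libraries. CHST12 lost its call in both limma fits of FPKM, and CHST14 gained one with no filter, with voom and without Schisandrin B replicate 2. The cause of these was not tested. The replicate block called 5471 genes higher and 5504 lower, with the members at 5 and 2, and 1 heparan sulfate sulfotransferase higher against 2. Lower calls fell to 0 for other CHST genes (upper quartile scaling, at least 5 CPM, DESeq2, threshold 0.01) and for sulfatases (these and library totals), and to 0 for cytosolic sulfotransferases at 5 CPM. Higher heparan sulfate sulfotransferases fell to 0 with no filter, DESeq2 or threshold 0.01 and to 1 at 5 CPM, where the other Golgi enzymes gave 1 and heparan chain synthesis 2. Higher linkage genes rose to 3 by upper quartile or library totals and 4 at 5 CPM, and lower ones to 1 with no filter or voom, as did lower keratan and HNK-1 genes with no filter. With single libraries left out, the ranges were 0 to 1 for lower other CHST genes, lower sulfatases and higher heparan sulfate sulfotransferases, 1 to 2 for higher linkage genes (2 without Schisandrin B replicate 2 or 3) and higher keratan and HNK-1 genes (2 without vehicle replicate 3), and 0 to 1 for lower genes of both lists and higher cytosolic sulfotransferases (1 without vehicle replicate 3).

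Counts per kilobase of annotated exons, chosen after seeing the data because the table gives no gene length for the planned one, moved levels and shares. Vehicle levels became 2.01 (CHST3), 18.5 (CHST7), 4.48 (CHST10), 1.98 (CHST12), 5.63 (CHST14) and 4.79 (CHST15). Vehicle shares became 3.51% (CHST2), 5.01% (CHST3), 46.1% (CHST7), 11.2% (CHST10), 4.96% (CHST12), 14.1% (CHST14) and 12.0% (CHST15), and treated shares 16.1% (CHST1), 5.88% (CHST3), 36.7% (CHST7), 6.97% (CHST10), 3.25% (CHST12), 9.73% (CHST14) and 14.4% (CHST15). Depth limits CHST1 and CHST6 in vehicle, at 12 and 26 counts in all.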

Other observations

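VCAN, the core protein of versican, a large carrier of chondroitin sulfate, had 0 of 46523252 counts in the vehicle libraries, which allows up to 0.0656 CPM, and 13 counts in the treated ones. NDST2, a heparan N-deacetylase and N-sulfotransferase, had 30.8, 36.6 and 18.4 CPM in the vehicle libraries.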
